A study of Mus musculus with 18 samples.

Results

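Somatostatin-producing D cells and ghrelin-producing X/A cells of the mouse gastric corpus were described here from single-cell transcriptomes. They were the cells that the authors' deposited clustering of the corpus cells placed in cluster 16 (D) and cluster 17 (X/A). Cluster 16 held 31 cells and cluster 17 held 29 cells, together 60 of the 3993 corpus cells and of the 4484 cells in the series. Histamine-producing enterochromaffin-like (ECL) cells, the 53 cells of cluster 14, served as the comparison. The series was made with Quartz-Seq2, a plate-based method in which each transcript carries a unique molecular identifier (UMI), in a study that asked which signalling pathways direct the differentiation of corpus epithelial cells. All mice were untreated male C57BL/6J wild-type animals of 10 weeks, so no comparison was one of treatment or genotype. The corpus cells (dataset 2) came from 2 pools, K and T, each of 3 mice, and each pool was sorted as live nucleated cells into 6 plates of 384 wells. A smaller set (dataset 1) came from corpus and antrum together, again from 2 pools of 3 mice, and had 491 cells. Different operators prepared the pools, so pool and operator cannot be told apart, nor can the mice within a pool. The pool was the replicate (n = 2) in everything that follows.

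D cells release somatostatin, which acts on neighbouring parietal, ECL and G cells and restrains acid secretion. X/A cells release ghrelin, a peptide that stimulates appetite and growth hormone release after its serine is joined to a fatty acid. ECL cells store histamine, release it in response to gastrin, and so drive parietal cells. Such endocrine cells package prohormones into granules, cut them with convertases, and release them when intracellular calcium rises.

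The endocrine cells were few in both pools. D cells made up 0.615% (95% exact binomial interval 0.318 to 1.07) of the kept cells of pool K and 0.930% (0.561 to 1.45) of those of pool T. X/A cells made up 0.769% (0.431 to 1.27) in pool K and 0.685% (0.375 to 1.15) in pool T. The intervals cover counting error only and overlapped for each type, so no difference between the pools was detectable at this number of cells. A plate held between 0 and 6 D cells and between 0 and 5 X/A cells. All 12 plates used the same 384 well barcodes, and the 60 D and X/A cells carried 58 distinct barcodes. A median D cell had 13085 UMIs and 4684 detected genes in pool K, and 13519 UMIs and 4641 genes in pool T. A median X/A cell had 18470 UMIs and 5458 genes in pool K, and 19781.5 UMIs and 5626 genes in pool T. The depth of D cells was the lower in both pools, by an exact permutation test at p = 0.333 (two-sided), the smallest p that 2 pools against 2 can give. Mitochondrial transcripts took a median of 2.61% and 2.36% of the UMIs of a D cell in pools K and T, 3.03% and 3.01% in X/A cells, and 4.36% and 4.28% in ECL cells. Summed over cells, the pools gave 158278 and 253839 UMIs for D cells, 296233 and 282144 for X/A cells, and 450967 and 565883 for ECL cells.

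The clusters were made from the same counts, so a difference between clusters is a description and is given without a p-value. Levels below are counts per 1000000 (CPM) in the summed cells of a cluster and pool, relative to the UMIs of the 6819 tested genes scaled by edgeR's TMM factors and not to all UMIs of the sum, given with pool K first and pool T second, and levels of different genes are not compared. A gene without a UMI in a cluster is given against a floor of 3 UMIs over both pools, which is 7.91 CPM in D cells, 5.97 in X/A cells and 2.98 in ECL cells. Tests were run on cells chosen by 3 genes alone, whatever their cluster: at least 50 Sst UMIs per 10000 for D, at least 50 Ghrl UMIs per 10000 with Hdc under 5 for X/A, the larger hormone deciding between them, and at least 5 Hdc UMIs per 10000 with neither hormone gate for ECL. These gates took 29 D cells, all in cluster 16, 34 X/A cells, of which 29 were in cluster 17, and 51 ECL cells, all in cluster 14. The other 5 gated X/A cells lay in clusters 1, 7, 10, 13 and 14, which include parietal (1), chief (10), mature pit (13) and ECL (14) cells. For all other genes the gated cells, summed by pool, went through the quasi-likelihood test of edgeR. Every log2 difference (± SE) and adjusted p below is from that test (Benjamini-Hochberg over the 7495 genes fitted, 2 pools a group), and a gene passed at an adjusted p under 0.05. The 3 gate genes were not read, which left 7492. A gene with no UMI in 2 of the 3 gated types passed the filter on low counts through the remaining type alone. Its call could go in that direction only, so its adjusted p does not support the direction. Hhex, Pax6, Igfbp7, Iapp, Pyy and Sct were such genes in D cells.

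Between D and X/A cells, 350 of the 7492 genes passed in the gated cells (4.67%), 156 higher in D cells (2.08%) and 194 higher in X/A cells (2.59%). Against ECL cells, 1131 genes passed for D cells (15.1%; 540 higher, 7.21%, and 591 lower, 7.89%) and 1041 for X/A cells (13.9%; 537 higher, 7.17%, and 504 lower, 6.73%). DESeq2 in place of edgeR called 144, 456 and 479 genes in the 3 comparisons. Without the D sum of pool T, 157 genes passed between D and X/A cells, and without that of pool K 188. Against ECL cells, leaving out a D sum gave 694 (pool K) and 471 (pool T) genes for D cells, and leaving out an ECL sum gave 598 and 649 for D cells and 622 and 665 for X/A cells. Of 36 genes of the lists below that passed between D and X/A cells by edgeR, DESeq2 did not call 14 (Adrb1, Bcl11a, Ffar4, Furin, Gata4, Hcar1, Hcn4, Iapp, Kcnk2, Lpl, Pyy, Scn3a, St18 and Syt13). Without the D sum of pool T, 13 did not pass (Adrb1, Bcl11a, Ffar4, Furin, Gata4, Hcar1, Kcnk2, Lpl, Pcsk1, Qpct, Resp18, Scn3a and St18) and 4 could not be tested (Hcn4, Iapp, Pyy and Sct). The same fit on the clusters served to choose the genes named by size, to colour the plot of all tested genes and to pick the genes looked up in dataset 1. It put 473 of 6819 genes past the threshold for D against X/A (6.94%; 2.86% higher and 4.08% lower), 1227 for D against ECL (18.0%; 8.46% higher and 9.53% lower) and 1321 for X/A against ECL (19.4%; 9.81% higher and 9.56% lower), counts that are no evidence of a difference since the clusters were made from these values. The plot of all tested genes sets the mean level in D cells against that in X/A cells.

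**Figure D1:**
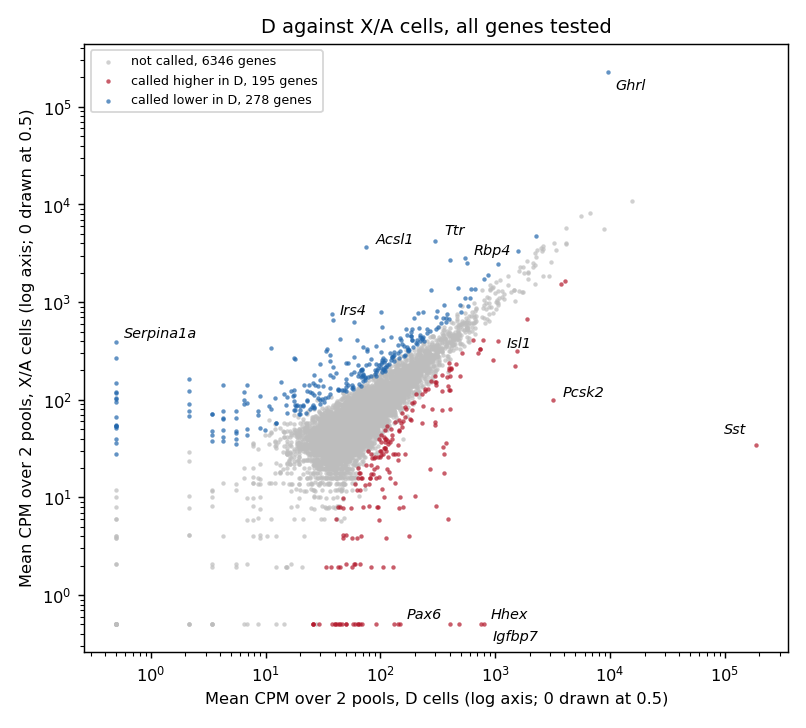
Mean level of each of 6819 genes in D cells (cluster 16, x axis) and X/A cells (cluster 17, y axis), in CPM on log axes, 0 drawn at 0.5; each point is a gene, with genes past the threshold in the fit on the clusters coloured. Sst lies far below the diagonal and Ghrl far above it, and Hhex, Pax6 and Igfbp7 lie on the bottom edge, where X/A cells had no UMI.

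The defining hormones separated the clusters almost cell by cell. Sst stood at 178387 in pool K and 198678 in pool T in D cells, against 15.4 and 53.6 in X/A cells and 22.2 and 19.8 in ECL cells. Single D cells had 451 to 2595 (median 1453) Sst UMIs per 10000 in pool K and 0 to 2806 (median 2301) in pool T. In 29 of the 31 cells the value was 344 or more, the other 2 were under 50, and no cell outside the 3 clusters exceeded 17.3. The marker check therefore held for Sst in all but 2 cells of cluster 16. A Sst UMI was found in 8 of 29 X/A cells (27.6%; median depth 19553 UMIs), in 9 of 53 ECL cells (17920) and in 27.3% of the parietal cells of cluster 1 (45390.5), a type that should lack it. With each cell thinned to 10000 UMIs the shares were 24.1% in X/A cells, 11.8% in ECL cells (2 shallower cells left out) and 10.9% in the parietal cells.

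Ghrl stood at 219916 in pool K and 238580.1 in pool T in X/A cells, all 29 of which had between 1524 and 2508 Ghrl UMIs per 10000. ECL cells followed with 17226 and 26322 CPM and D cells with 16618 and 2596. The order X/A, ECL, D held in both pools, but in pool K the ECL and D levels lay close together. Among single ECL cells the median was 101 Ghrl UMIs per 10000, and 31 of 53 cells had 50 or more. Among D cells 7 of 31 had 50 or more, 4 in pool K and 3 in pool T, and 19 exceeded 4.32, the 99th percentile of the cells outside the 3 clusters. A single D cell of pool K carried 1812 of the cluster's 3033 Ghrl UMIs. No X/A cell had 50 Sst UMIs or 5 Hdc UMIs per 10000. Hdc, the histidine decarboxylase that makes histamine, stood at 7031 and 4539 CPM in ECL cells, at 3.84 and 12.4 in X/A cells and at 595 and 17.2 in D cells, where 1 cell of pool K held 84 of the 91 UMIs.

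**Figure D2:**
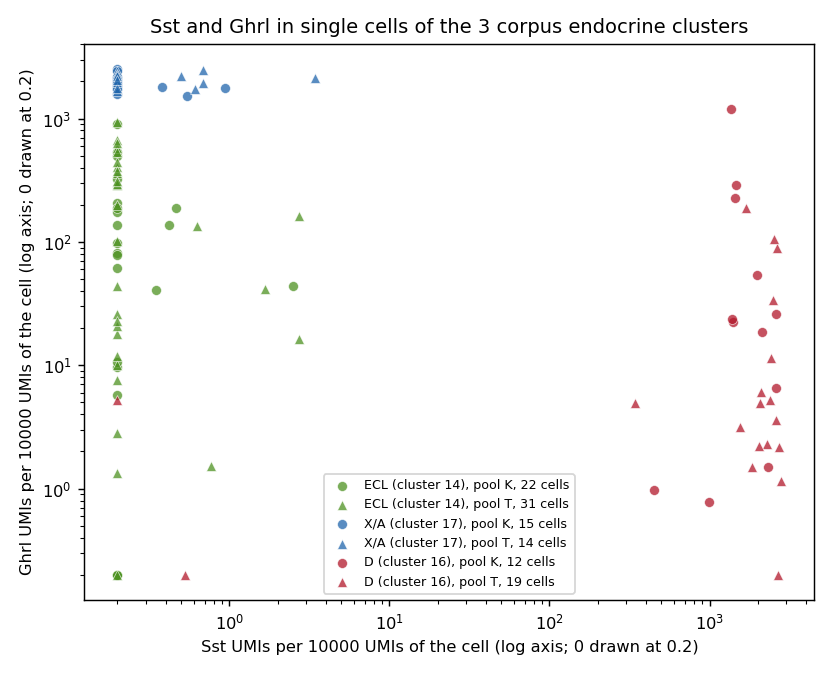
Sst (x axis) and Ghrl (y axis) UMIs per 10000 UMIs in each of the 113 cells of clusters 14 (green), 16 (red) and 17 (blue), on log axes with 0 drawn at 0.2; circles are cells of pool K and triangles cells of pool T. The 29 X/A cells form a tight group at high Ghrl, D cells spread widely in Ghrl at high Sst, and 2 D cells of pool T lie at low Sst.

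The promoters of the 2 hormone genes are shown because Sst is a textbook target of the cyclic AMP response element (CRE) and Ghrl can be set beside it. On GRCm39 (Gencode M39) Sst lies at chr16:23707321-23711733 and Ghrl at chr6:113693080-113696844, both on the minus strand. The promoters are given 5′ to 3′ on the gene's minus strand as the 250 bases before the RefSeq start (GRCm38.p6, Sst chr16:23890845-23891094, Ghrl chr6:113719912-113720161, the most upstream of 4 annotated Ghrl starts), in lower case with the CRE, TGACGTCA, in capitals.
Sst: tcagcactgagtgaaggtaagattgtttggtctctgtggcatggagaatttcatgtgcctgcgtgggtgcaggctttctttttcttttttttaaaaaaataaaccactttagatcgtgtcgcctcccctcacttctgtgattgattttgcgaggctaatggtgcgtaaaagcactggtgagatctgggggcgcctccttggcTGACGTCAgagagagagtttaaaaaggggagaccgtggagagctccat
Ghrl: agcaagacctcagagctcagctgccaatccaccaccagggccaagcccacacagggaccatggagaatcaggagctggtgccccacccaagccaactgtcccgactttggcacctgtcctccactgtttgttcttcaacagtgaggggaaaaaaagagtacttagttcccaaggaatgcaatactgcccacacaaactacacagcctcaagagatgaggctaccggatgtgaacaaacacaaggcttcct
The Sst window held 1 CRE, at bases -48 to -41 from the start. None of the 4 Ghrl windows held one, nor did those of Hhex or Hdc. The 8-letter palindrome was found in 1.80% of the 32544 RefSeq promoter windows of 300 bases (250 before to 50 after the start), and a match is a description of letters only.

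Beyond the defining hormones, some peptide genes passed between the 2 cell types. Of 35 hormone and peptide genes in the files, 10 could be tested in the gated cells besides Sst and Ghrl. Between D and X/A cells 2 were higher in X/A (Rbp4 and Ttr) and 5 did not pass. The other 3 (Iapp, Pyy and Sct) were called higher in D. These had no UMI in X/A or ECL cells and entered the test through D cells alone. Their calls could go only in that direction and are no support for a difference in peptide genes. The median log2 difference was 0.49, against -0.0023 over all genes tested. It includes these 3 genes of fixed direction and is therefore not read as a shift of the list. Of all genes tested 4.67% passed between D and X/A cells. Pyy, which encodes peptide YY, stood at 54.8 and 232 CPM in D cells, from 5 cells, and had no UMI in X/A or ECL cells (at least 27.4-fold higher than in X/A cells, edgeR adjusted p = 0.00169). Iapp, which encodes amylin, came from 5 D cells (41.1 and 85.8, edgeR adjusted p = 0.00312), and Sct, which encodes secretin, from 10 (41.1 and 51.5, edgeR adjusted p = 0.0047). In the Pyy sum 52 of 62 UMIs lay in 1 cell of pool T, and in the Iapp sum 15 of 26 UMIs in 1 cell. Sct had at most 4 UMIs in a cell. Rbp4, the plasma carrier of retinol, stood at 2994 and 2621 in X/A cells, 424 and 665 in D cells and 104 and 129 in ECL cells (D against X/A, edgeR log2 difference -1.90 ± 0.29, adjusted p = 0.00127), with 97 of the 155 UMIs of D cells of pool T in 1 cell. Ttr, transthyretin, the partner of retinol-binding protein in plasma, stood at 4613 and 3903 in X/A cells, 3020.2 and 2592 in ECL cells and 465 and 137 in D cells (edgeR log2 difference -3.66 ± 0.39, adjusted p = 5.69e-05). In D cells 38 of the 100 Ttr UMIs lay in 1 cell of pool K. Both transport genes were thus lowest or intermediate in D cells in each pool, without overlap between D and X/A. Mboat4, the acyltransferase that adds the fatty acid to ghrelin, was not particular to X/A cells: it stood at 357 and 379 there, 226 and 240.3 in D cells and 484 and 336 in ECL cells (D against X/A, edgeR log2 difference -0.59 ± 0.26, adjusted p = 0.248). Nucb2, which encodes the nesfatin-1 precursor, also overlapped, at 80.7 and 98.9 in X/A cells and 88.97 and 159 in D cells (edgeR log2 difference 0.49 ± 0.34, adjusted p = 0.52).

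Some transcription factors differed between the 2 types. Of 46 endocrine transcription factors, 30 could be tested in the gated cells. Between D and X/A cells 5 were higher in D (Hhex, Pax6, Isl1, Fev and St18), 4 were higher in X/A (among them Bcl11a, Gata4 and Onecut2) and 21 did not pass, with a median log2 difference of 0.42. Of all genes tested 4.67% passed. Hhex and Pax6 entered the test through D cells alone, so their calls could go in that direction only. Their adjusted p-values do not support the direction, and the count and median include them. Hhex, a homeobox gene required for D cells of the pancreas, stood at 876 in pool K and 635 in pool T in D cells, 28 of 31 of which had a UMI, and had none in X/A or ECL cells (at least 122-fold and at least 244-fold higher, edgeR adjusted p = 9.52e-08 and 2.36e-08). Pax6, a paired-box factor of endocrine and eye development, was found in 27 of 31 D cells at 534 in pool K and 270.4 in pool T, again with no UMI in either of the others (at least 62.3-fold and at least 125-fold higher, edgeR adjusted p = 2.85e-06 and 2.83e-07). In the parietal cells of cluster 1, 0.655% of cells had a Hhex UMI and 0.437% a Pax6 UMI, at a median depth of 45390.5 against 13453 UMIs in D cells. Over all 3880 cells outside the 3 clusters, 5.62% had a Hhex UMI (median depth 31486 UMIs), and none had more than 2.22 per 10000. Both factors were thus found in most D cells and in no X/A or ECL cell. Isl1, a LIM-homeobox factor, stood at 1157 and 961 in D cells, 457 and 350.3 in X/A cells and 8.88 and 5.39 in ECL cells, so each type lay apart from the next (D against X/A, edgeR log2 difference 1.43 ± 0.22, adjusted p = 0.00141). Fev, a factor of serotonergic and endocrine lineages, stood at 390.1 and 172 in D cells and 104 and 57.7 in X/A cells (edgeR log2 difference 1.99 ± 0.31, adjusted p = 0.00127).

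Other factors were higher in X/A cells. Onecut2 stood at 149.9 and 70.1 in X/A cells and 0 and 34.3 in D cells, where 7 of 8 UMIs came from 1 cell of pool T, described below (edgeR adjusted p = 0.00408). Bcl11a, a zinc-finger repressor, stood at 119 and 132 in X/A and 54.8 and 30.04 in D cells (edgeR log2 difference -1.73 ± 0.45, adjusted p = 0.0404). Gata4 stood at 123 and 82.4 in X/A and 47.9 and 51.5 in D cells (edgeR log2 difference -1.38 ± 0.36, adjusted p = 0.0408), a call lost without the 5 gated X/A cells outside cluster 17 (edgeR adjusted p = 0.0905).

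Other factors set D and X/A cells together, apart from ECL cells. Against ECL cells 14 of the 30 factors were higher in D cells and 12 in X/A cells, while 5 and 4 were lower, with median log2 differences of 0.79 and 0.52. Of all genes tested 15.1% and 13.9% passed in either direction. The 14 factors and the median of D cells include Hhex and Pax6, whose direction was fixed by the filter. Neurod1, a basic helix-loop-helix factor of endocrine differentiation, stood at 629.7 and 545 in D cells and 492 and 293 in X/A cells, but had 1 UMI in the 53 ECL cells (edgeR adjusted p = 3.70e-08 for D and 1.59e-07 for X/A). Nkx2-2, a homeobox factor of the same programme, stood at 212 and 206 in D cells and 384 and 354 in X/A cells, with no UMI in ECL cells (edgeR adjusted p = 1.08e-06 and 8.31e-08). Neither passed between D and X/A cells (Neurod1, edgeR log2 difference 0.85 ± 0.26, adjusted p = 0.0768; Nkx2-2, edgeR log2 difference -0.87 ± 0.25, adjusted p = 0.0626). Rfx6, a regulator of endocrine gene expression, was also higher than in ECL cells in both types, at 287 and 240.3 in D, 188 and 235 in X/A and 35.5 and 57.5 in ECL cells. Insm1, a zinc-finger factor of endocrine precursors, was highest in ECL cells (539.6 and 451), against 287 and 322 in D cells and 149.9 and 152 in X/A cells (D against ECL, edgeR log2 difference -0.86 ± 0.23, adjusted p = 0.0211). Nkx6-2 stood at 211 and 302 in ECL cells, 49.97 and 20.6 in X/A cells and 6.84 and 8.58 in D cells. Pdx1, a factor of antrum, duodenum and pancreas, had no UMI in any of the 3 clusters. On GRCm39 (Gencode M39), Hhex lies at chr19:37423258-37429179 and Pax6 at chr2:105499234-105530952, both on the plus strand. The plot of transcription factors gives the values by pool.

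**Figure D3:**
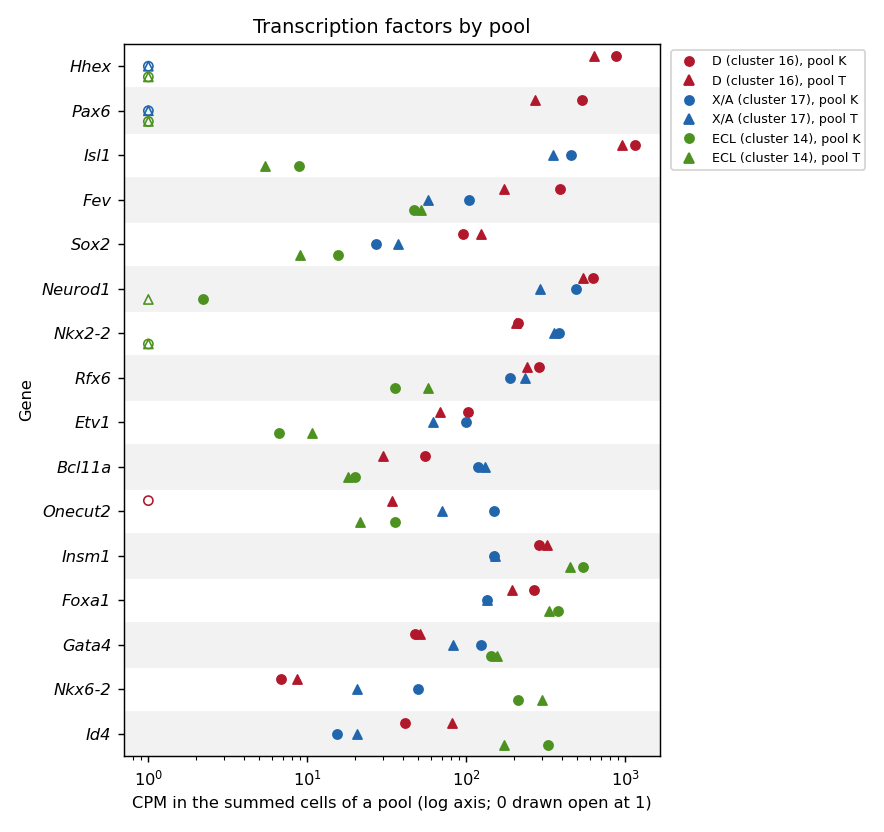
Levels of endocrine transcription factors in D (red), X/A (blue) and ECL (green) cells, in CPM on a log axis, with circles for pool K, triangles for pool T and open symbols at 1 for a level of 0. Hhex and Pax6 have filled symbols only in red, and Neurod1 and Nkx2-2 have red and blue symbols far above the green.

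Prohormone processing genes included some that differed between the 2 types. Of 18 genes for processing and granule cargo, 15 could be tested. Between D and X/A cells 4 were higher in D (Pcsk2, Pcsk1n, Qpct and Resp18), 2 were higher in X/A (Pcsk1 and Furin) and 9 did not pass, with a median log2 difference of 0.59. The share over all genes tested was 4.67%. Pcsk2, which encodes prohormone convertase PC2, stood at 2970.4 in pool K and 3459 in pool T in D cells, 61.5 and 136 in X/A cells and 0 and 8.98 in ECL cells (D against X/A, edgeR log2 difference 5.40 ± 0.43, adjusted p = 2.85e-06). Pcsk1, which encodes the other neuroendocrine convertase, PC1/3, ran the opposite way, at 267 and 206 in D cells, 692 and 882 in X/A cells and 975 and 821 in ECL cells (edgeR log2 difference -1.48 ± 0.27, adjusted p = 0.00414). For neither convertase did the D and X/A pools overlap. Pcsk1n, whose product proSAAS inhibits PC1/3, stood at 4072 and 3983 in D cells, 1376 and 1949 in X/A cells and 44.4 and 61.1 in ECL cells (edgeR log2 difference 1.68 ± 0.29, adjusted p = 0.00278). Qpct, the cyclase that forms amino-terminal pyroglutamate, was found mainly in D cells (82.1 and 206, against 11.5 and 4.12 in X/A cells, edgeR log2 difference 4.65 ± 0.66, adjusted p = 0.000669). Resp18, a granule protein, stood at 3402 and 4154 in D and 1230.04 and 1805 in X/A cells (edgeR log2 difference 1.65 ± 0.32, adjusted p = 0.00611). Furin, the ubiquitous convertase, passed in the gated cells only through cells outside cluster 17: cluster 17 held 54 Furin UMIs and the gated X/A cells 328, the clusters stood at 75.3 and 77.2 in D and 111 and 103 in X/A cells, and without the 5 outside cells it did not pass (edgeR adjusted p = 0.581).

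Against ECL cells, 11 of these 15 genes passed in D cells (8 higher and 3 lower) and 6 in X/A cells (5 higher, with Furin, and 1 lower), while 4 and 9 did not pass. The shares over all genes tested were 15.1% for D and 13.9% for X/A cells. Of the 10 tested hormone and peptide genes, which include the granins Scg2, Chga and Chgb, 9 passed in D cells (5 higher and 4 lower) and 5 in X/A cells (2 higher and 3 lower). Among those higher in D cells, Iapp, Pyy and Sct entered the test through D cells alone. Their direction was fixed, so they do not support it. Scg2, the precursor of secretoneurin, stood at 541 and 789.6 in D cells and 1329.98 and 1405 in X/A cells, with no UMI in ECL cells (at least 233-fold and at least 459-fold higher, edgeR adjusted p = 6.83e-08 and 6.24e-08). Scgn, the calcium-binding protein secretagogin, stood at 1143 and 983 and 842 and 1117, also with no ECL UMI (at least 351-fold and at least 327-fold higher, edgeR adjusted p = 2.36e-08 and 3.39e-08). In the gated cells neither passed between D and X/A cells (adjusted p = 0.271 and 0.355 by edgeR). The 2 Scg2 levels of D cells both lay below those of X/A cells. Chga, the granule matrix protein chromogranin A, went the other way, at 16748 and 14158 in D cells, 11039.6 and 10868 in X/A cells and 62506 and 57922 in ECL cells (D against ECL, edgeR log2 difference -1.87 ± 0.40, adjusted p = 0.00504, and X/A against ECL, -2.38 ± 0.40, adjusted p = 0.000765). Chgb was lower than in ECL cells in both as well, with 1533 and 1433 in D, 949 and 1109 in X/A and 4271 and 4733 in ECL cells. The amidating enzyme gene Pam was also highest in ECL cells (1055 and 683, against 335 and 313 in D and 246 and 239 in X/A cells). Scg3, which links granins to the granule membrane, was higher in both types than in ECL cells, at 753 and 588, 653 and 602 and 295 and 282 in D, X/A and ECL cells.

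Of 28 genes of the exocytosis machinery 23 could be tested, and most of them did not pass between D and X/A cells. Syt4 and Syt13 were higher in D, Rab27b and Sytl4 were higher in X/A, and the median log2 difference was 0.06. Of all genes tested 4.67% passed. Syt4, a synaptotagmin, stood at 130.04 and 167 in D cells, with no UMI in X/A cells (at least 25.6-fold higher, edgeR adjusted p = 8.33e-05). Syt13 stood at 308 and 219 in D and 154 and 157 in X/A cells (edgeR log2 difference 1.11 ± 0.23, adjusted p = 0.00961). Sytl4 encodes granuphilin, an effector of the small GTPase Rab27 that docks granules at the plasma membrane. It stood at 311 and 363 in X/A cells, 13.7 and 8.58 in D cells and 2.22 and 26.9 in ECL cells (edgeR log2 difference -4.52 ± 0.59, adjusted p = 0.000317). Rab27b itself stood at 99.9 and 152 in X/A cells, 13.7 and 21.5 in D cells and 33.3 and 35.9 in ECL cells (edgeR log2 difference -2.73 ± 0.43, adjusted p = 0.00138). The docking GTPase and its effector were thus both highest in X/A cells, in each pool. Against ECL cells, 2 of the 23 genes were higher (Syt4 and Syt13) and 5 lower in D cells. In X/A cells 3 were higher (Rab27b, Syt13 and Sytl4) and 5 lower. Against ECL cells 15.1% of all genes tested passed for D and 13.9% for X/A cells. The lower genes included Rab3c, Rab3d, Snap25 and Syp in D cells, and Rab3c, Rab3d, Snap25 and Stx1a in X/A cells. Snap25, a core fusion protein, stood at 226 and 275 in D, 158 and 140.1 in X/A and 524 and 591 in ECL cells (D against ECL, edgeR log2 difference -1.20 ± 0.21, adjusted p = 0.00147).

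**Figure D4:**
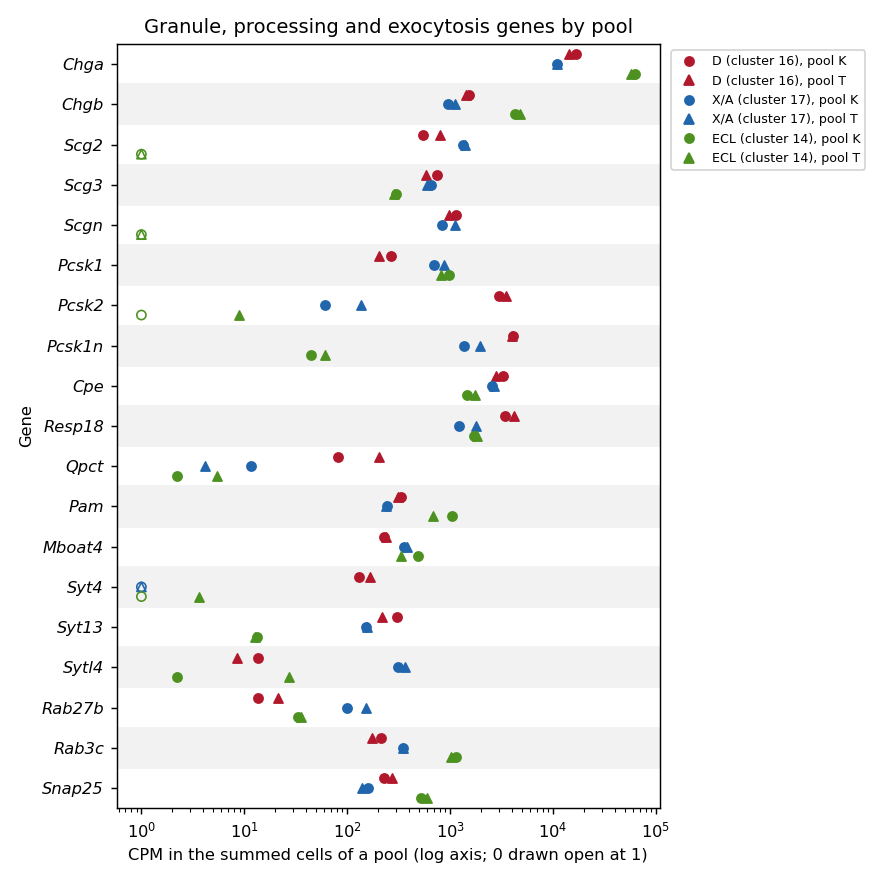
Levels of granule, processing and exocytosis genes in D (red), X/A (blue) and ECL (green) cells, in CPM on a log axis, with circles for pool K, triangles for pool T and open symbols at 1 for a level of 0. Pcsk2, Pcsk1n and Qpct lie farthest right in D cells, Sytl4 and Rab27b in X/A cells, and Chga, Chgb, Pam and Rab3c in ECL cells.

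Receptors through which hormones, nerves and nutrients act on endocrine cells were mostly too low to test. Of 62 such genes in the files 15 could be tested. Between D and X/A cells 2 were higher in D (Calcrl and Gipr), 3 were higher in X/A (Adrb1, Ffar4 and Hcar1) and 10 did not pass, with a median log2 difference of -0.23. The share over all genes tested was 4.67%. Calcrl, which with Ramp1 forms the receptor for calcitonin gene-related peptide, stood at 130.04 and 167 in D cells, 3.84 and 16.5 in X/A cells and 0 and 3.59 in ECL cells (edgeR log2 difference 4.31 ± 0.57, adjusted p = 0.000355). Ramp1 was measured in all 3, at 205 and 142, 192 and 189.6 and 91.1 and 113 in D, X/A and ECL cells, and did not pass between D and X/A (edgeR log2 difference 0.22 ± 0.25, adjusted p = 0.709). Gipr, the receptor for the incretin GIP, stood at 185 and 98.7 in D cells, 26.9 and 28.8 in X/A cells and 19.99 and 37.7 in ECL cells (edgeR log2 difference 2.38 ± 0.42, adjusted p = 0.00328). Of the tested receptors of the list, these 2 were the ones that set D cells above both other types. Adrb1, the beta-1 adrenergic receptor, had no UMI in D cells and stood at 57.7 and 49.5 in X/A cells (at least 6.79-fold lower in D, edgeR adjusted p = 0.00911). Hcar1, the lactate receptor, likewise had none in D cells and stood at 69.2 and 32.97 in X/A cells (at least 6.54-fold lower in D, edgeR adjusted p = 0.0113). Ffar4, a receptor for long-chain fatty acids, stood at 173 and 264 in X/A cells, 113 and 52.1 in ECL cells and 34.2 and 42.9 in D cells (edgeR log2 difference -2.01 ± 0.45, adjusted p = 0.0153). In D cells a count of 0 allows up to 7.91 CPM, so absence was not shown for these low genes.

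Against ECL cells 7 tested receptors were lower in D cells and 3 higher (Calcrl, Gipr and Ramp1), and 4 were lower in X/A cells and 1 higher (Ffar4). Of the 15 that could be tested, others did not pass. Among all genes tested 15.1% passed for D and 13.9% for X/A cells. Cckbr, the gastrin receptor, was among the markers chosen for D and ECL cells, and it stood at 435 and 467 in ECL cells with 1 UMI in the 31 D cells and none in X/A cells (D against ECL, edgeR adjusted p = 2.07e-06). At this depth Cckbr therefore did not mark the D cells of cluster 16. Sstr2, a receptor for somatostatin, stood at 124 and 104 in ECL cells and 3.84 and 4.12 in X/A cells and had no UMI in D cells (at least 14.3-fold lower in D, edgeR adjusted p = 6.47e-05). Cckar, which binds cholecystokinin, stood at 39.97 and 96.997 in ECL cells and was 0 in D cells (edgeR adjusted p = 0.00429). Casr, the calcium-sensing receptor, had counts too low for the test, at 34.2 and 4.29 in D cells, 19.2 and 16.5 in X/A cells and 2.22 and 1.80 in ECL cells.

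Of 49 ion channel genes 24 could be tested. Between D and X/A cells 4 were higher in D (Abcc8, Hcn4, Kcnk2 and Scn3a), none was higher in X/A by edgeR, and the median log2 difference was 0.23. Among all genes tested 4.67% passed. Abcc8, the sulphonylurea receptor subunit of the ATP-sensitive potassium channel, stood at 397 and 360.5 in D cells, 173 and 169 in X/A cells and 68.8 and 70.1 in ECL cells (edgeR log2 difference 1.49 ± 0.21, adjusted p = 0.000715). Its pore partner Kcnj11 stood at 103 and 154, 76.9 and 70.1 and 99.9 and 46.7 in the same order and did not pass (edgeR log2 difference 1.18 ± 0.39, adjusted p = 0.108). Hcn4, the hyperpolarisation-activated pacemaker channel, stood at 54.8 and 77.2 in D cells, 0 and 4.12 in X/A cells and 0 and 5.39 in ECL cells (edgeR adjusted p = 0.013). Scn3a, a voltage-gated sodium channel, stood at 75.3 and 90.1 in D and 26.9 and 8.24 in X/A cells (edgeR log2 difference 2.20 ± 0.45, adjusted p = 0.00911). In ECL cells Scn3a stood at 46.6 and 50.3, and it did not pass between D and ECL cells (edgeR log2 difference 0.94 ± 0.36, adjusted p = 0.0961). Kcnk3, an acid-sensitive potassium channel, was highest in ECL cells (402 and 485, against 61.6 and 129 in D and 46.1 and 41.2 in X/A cells).

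Fatty acid genes were led by a single gene. Of 27 genes 18 could be tested, 2 were higher in X/A than in D cells (Acsl1 and Lpl), 0 were higher in D by edgeR, and the median log2 difference was -0.29. Between D and X/A cells 4.67% of all genes tested passed. Acsl1, which joins long-chain fatty acids to coenzyme A, stood at 4082 in pool K and 3182 in pool T in X/A cells, all 29 of which had a UMI, against 82.1 and 68.7 in D cells and 73.3 and 88.02 in ECL cells (D against X/A, edgeR log2 difference -5.37 ± 0.31, adjusted p = 9.52e-08, and X/A against ECL, 5.27 ± 0.29, adjusted p = 3.39e-08). Of all 20 corpus clusters, X/A cells had the highest Acsl1 level, followed by parietal cluster 1, as a description. Lpl, lipoprotein lipase, stood at 277 and 173 in X/A and 82.1 and 68.7 in D cells (edgeR log2 difference -2.56 ± 0.60, adjusted p = 0.0206); 300 Lpl UMIs were counted in the gated X/A cells and 114 in cluster 17, so part of the gated sum lay in cells of other clusters. Slc18a2, the vesicular monoamine transporter that ECL cells use for histamine, was the 1 amine gene of 5 tested that passed between D and X/A cells. It stood at 4355 and 3587 in ECL cells, 427 and 198 in X/A cells and 41.1 and 25.7 in D cells (edgeR log2 difference -3.62 ± 0.39, adjusted p = 5.69e-05), a graded order in which no 2 types overlapped.

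**Figure D5:**
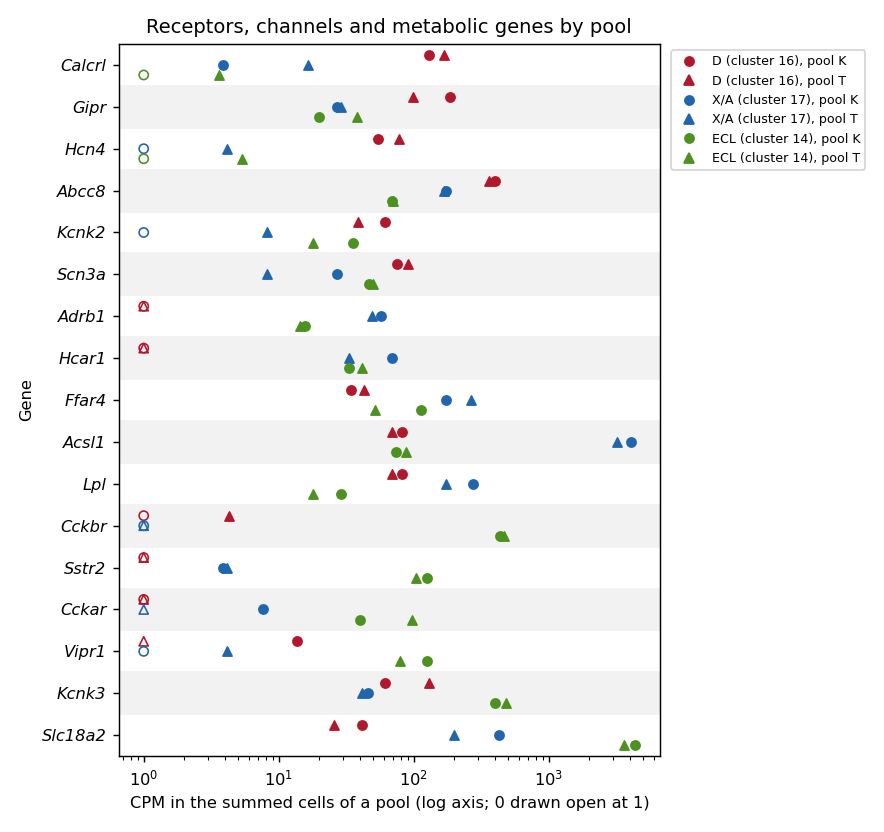
Levels of receptors, channels and metabolic genes in D (red), X/A (blue) and ECL (green) cells, in CPM on a log axis, with circles for pool K, triangles for pool T and open symbols at 1 for a level of 0. Calcrl, Gipr, Hcn4 and Abcc8 lie farthest right in D cells, Acsl1 in X/A cells, and Cckbr, Sstr2, Kcnk3 and Slc18a2 in ECL cells, while Adrb1 and Hcar1 are at 0 in D cells.

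The genes that led each comparison by size included many outside these lists. Sst, Igfbp7, Hhex, Cltrn, Pax6, Syt4, Mlxipl, Pak3, Gm42888 and Car8 led those higher in D than in X/A cells. Igfbp7, a secreted binder of insulin-like growth factors, stood at 767 in pool K and 815 in pool T in D cells, 28 of 31 of which had a UMI, and was 0 in the other types (at least 134-fold higher than in X/A cells, edgeR adjusted p = 1.19e-07). Igfbp7 entered the test through D cells alone, so its call could only be higher in D. Igfbp7 is also abundant in endothelial and stromal cells and was highest of all clusters in cluster 19. The 3 endothelial markers and 4 stromal markers looked at had no UMI in D cells. Cltrn, also called collectrin, stood at 431 and 545 in D cells and was 0 in X/A cells (edgeR adjusted p = 6.45e-07). Mlxipl, the carbohydrate-response factor ChREBP, stood at 130.04 and 133 in D and 0 in X/A cells (edgeR adjusted p = 5.56e-05). Car8, a carbonic anhydrase-related protein of calcium signalling, stood at 465 and 313 in D and 3.84 and 8.24 in X/A cells (edgeR log2 difference 5.36 ± 0.35, adjusted p = 2.71e-07).

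On the X/A side of that comparison stood Serpina1a, Serpina1b, Tff3, Guca2b, Galnt13, Adcy5, Tm4sf1, Ecrg4, Scn7a and Flrt3, none of which had a UMI in the 31 D cells. Serpina1a and Serpina1b encode near-identical protease inhibitors, so the split of reads between them is uncertain. Serpina1a stood at 327 and 453 in X/A and 17.8 and 8.98 in ECL cells (edgeR adjusted p = 1.53e-05 against D). Tff3, a trefoil peptide, stood at 135 and 165 in X/A cells and 231 and 225 in ECL cells, so that D cells alone of the 3 types were at 0 (edgeR adjusted p = 0.00013). Guca2b, which encodes uroguanylin, stood at 131 and 107 in X/A and 26.6 and 32.3 in ECL cells (edgeR adjusted p = 0.000445). Adcy5, an adenylyl cyclase, stood at 96.1 and 111 in X/A and 44.4 and 62.9 in ECL cells (edgeR adjusted p = 0.00112). In all 4, D cells were at 0 in both pools.

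Against ECL cells, Sst, Scgn, Igfbp7, Hhex, Scg2, Pax6, Pcsk2, Nkx2-2, Neurod1 and Pla2g2f led the genes higher in D cells, and Scg2, Scgn, Irs4, Nkx2-2, Cd177, Pla2g2d, Alb, Neurod1, Olfml3 and Ecrg4 those higher in X/A cells. Irs4, an insulin receptor substrate, stood at 592 in pool K and 705 in pool T in X/A cells, all 29 of which had a UMI, with none in ECL cells (at least 217-fold higher, edgeR adjusted p = 3.76e-07). D cells had 68.4 and 8.58, with 8 of the 12 UMIs in 1 cell (D against X/A, edgeR log2 difference -4.02 ± 0.45, adjusted p = 0.000128). Cd177, a surface glycoprotein, stood at 838 and 577 in X/A cells, 171 and 433 in D cells and 2.22 and 0 in ECL cells (edgeR adjusted p = 3.39e-08 for X/A against ECL), and 66 of the 101 UMIs of D cells in pool T lay in the 1 cell, outside the Sst gate, that is described below. The genes that led in the other direction, higher in ECL cells, were for D cells Pappa2, Ptf1a, Rbpjl, Ahsg, Tcim, Gc, Serpina7, Lhx5, Tff3 and Pnliprp1, and for X/A cells Vtn, Cel, Pappa2, Fst, Rbpjl, Ahsg, Cckbr, Tcim, Hdc and Lhx5. Ptf1a and Rbpjl, partners in a transcription complex of pancreatic acinar cells, stood at 868 and 727 and at 619.6 and 950.2 in ECL cells, with no UMI of either in D cells (edgeR adjusted p = 6.73e-08 and 0.000141). X/A cells had 2 Ptf1a UMIs and no Rbpjl UMI. Cel, a bile salt-dependent lipase, stood at 2998 and 4011 in ECL cells and 0 in X/A cells.

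Within cluster 16, 4 cells stood apart, a selection made after their values were seen. The first, of pool K, had 451 Sst UMIs per 10000, no Hhex UMI and 14 Pax6 UMIs, and carried 84 of the cluster's 91 Hdc UMIs, 101 of its 107 Spp1 UMIs (osteopontin) and 19 of its 20 Pnoc UMIs (prepronociceptin). The second, also of pool K, had 2055 Sst UMIs and 1812 Ghrl UMIs, with 8 Hhex and 7 Pax6 UMIs, and held all 6 Tac1 UMIs of the cluster. It also had 8 of the cluster's 12 Irs4 UMIs (5.26 per 10000, against a mean of 5.55 over X/A cells) and none of the 1240 Pcsk2 UMIs. It thus held both hormones, with genes of both types. The third, of pool T, had 1 Sst UMI and no Hhex or Pax6 UMI, and carried 28 of 64 Hes6, 32 of 73 Sox4 and 12 of 12 Smoc2 UMIs. Hes6 and Sox4 are factors known from differentiating neural and endocrine precursors. The fourth, of pool T, had no Sst UMI and 8 Ghrl UMIs, with 39 Isl1, 22 Nkx2-2, 66 of 126 Cd177 and 104 of 346 Cdkn1a UMIs. The fourth cell also had no Hhex or Pax6 UMI, with 9 Neurod1 and 11 Scgn UMIs. The last 2 cells thus lay under the Sst gate and lacked Hhex and Pax6, while the fourth held other factors found in D and X/A cells. Without the 2 of them that passed the Sst gate, 320 genes passed between the gated D and X/A cells, 1091 between D and ECL and 1017 between X/A and ECL cells, from fits chosen after seeing the data.

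Transcripts of other cell types were present at low levels in all 3 clusters. The 4 chief cell markers, led by Pgc (pepsinogen C), took 0.803% and 0.842% of the UMIs of D cells in pools K and T, 0.553% and 0.445% in X/A cells and 0.291% and 0.402% in ECL cells, against 19.6% and 19.2% in cluster 10, the chief cells. The 4 pit markers, led by Gkn2, took 0.167% and 0.168% in D, 0.0925% and 0.129% in X/A and 0.136% and 0.167% in ECL cells, and the 4 parietal markers, led by Atp4a, 0.0341% and 0.0524%, 0.0361% and 0.0152% and 0.0408% and 0.0511%. The order of D, X/A and ECL cells in chief transcripts was the same in both pools. In the gated X/A cells all 4 chief markers and 2 parietal markers (Atp4a and Atp4b) passed against ECL cells. Without the 5 cells outside cluster 17, Atp4a and Atp4b turned to lower in X/A cells and did not pass (edgeR log2 differences -0.39 and -0.80, adjusted p = 0.252 and 0.131), nor did the chief markers Cblif and Pga5 (adjusted p = 0.0522 and 0.246), while Pgc and Gper1 did. Gast (gastrin, of G cells) and Tph1 (of enterochromaffin cells) had no UMI, nor did the stromal, endothelial and leukocyte markers in D and X/A cells. The 5 neuron and glia markers took 0.0171% and 0.0315% of UMIs in D, 0.00743% and 0.0149% in X/A and 0.00665% and 0.00442% in ECL cells, with S100b at 0 in all 3. Of the 2 tested in the gated cells Tubb3, a neuronal tubulin, passed against ECL cells (edgeR adjusted p = 0.000109 for D and 0.00116 for X/A), and 28 of its 65 UMIs in cluster 16 lay in the 2 cells of pool T that stood apart, which the gate leaves out. The part of these transcripts in the results was not tested. Early response genes also differed: 14 genes of the response to dissociation took 2.4002% and 2.3562% of D-cell UMIs, 2.84% and 2.89% in X/A cells and 1.32% and 1.77% in ECL cells. None of the 13 tested passed between D and X/A cells by edgeR, while 6 were higher in D and 8 in X/A than in ECL cells, at median log2 differences of 0.89 and 1.03. Against ECL cells 15.1% of all genes tested passed for D and 13.9% for X/A cells. Atf3, a stress-induced factor, stood at 2231 and 2262 in D, 4797 and 4760.2 in X/A and 573 and 1239 in ECL cells. The part of this response in the comparisons with ECL cells was not tested.

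In dataset 1 the same gates took 3 D cells (2 of pool 1 and 1 of pool 2) and 5 X/A cells (2 and 3). With 1 D cell in pool 2 no test was run, and values alone are given. These pools shared neither mice nor plates with the corpus pools. Hhex had 50 and 9 UMIs in the D cells of pools 1 and 2 and none in the X/A cells, and Pax6 had 19 and 8 and none. Acsl1 had 84 and 158 in the X/A cells against 1 and 1 in the D cells, and Irs4 19 and 76 against none. These 4 genes lay on the same side as in the corpus clusters in both pools, and others did not. Ffar4, lower in D cells of the corpus, had 13 and 2 UMIs in the D cells (488 and 192 CPM, in dataset 1 relative to all UMIs of the cells) against 4 and 7 in the X/A cells (122 and 111). Fev, higher in D cells of the corpus, had 2 and 0 UMIs against 5 and 5. Rbp4 stood at 8368 and 769 CPM in D against 3192 and 1363 in X/A cells, Pcsk1n at 113 and 2789 against 1550 and 475, and Resp18 at 1651 and 2789 against 2493 and 1395, so each of the 3 turned in pool 1. Igfbp7 had 18 and 42 in the D cells and none in the X/A cells, and Pcsk2 had 158 and 59 against 6 and 9. Pyy had 774 and 0 in the D cells. Of the genes with at least 10 UMIs in these cells, 45 of 75 past the threshold as higher in D than X/A between the corpus clusters were higher in both pools (60.0%) and 122 of 176 called lower were lower in both (69.3%), while 8 and 9 genes went the opposite way in both. Among 2347 genes that were not called in the corpus, 21.9% were higher in both and 29.1% lower in both.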

How the data were processed

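Corpus gastric units were dissociated, sorted and processed by Quartz-Seq2. The authors demultiplexed with bcl2fastq (2.20.0.422) and mapped to GRCm39; the deposited plate tables hold UMI counts per gene and well, and a deposited metadata table gives each kept cell's cluster and mitochondrial percent, as the authors computed it. Cells and clusters were taken as deposited (over 2500 detected genes per kept cell, a threshold read from the files as a lowest value of 2501), and no doublet caller was run. According to the study's methods, reads were processed with Drop-seq tools, the FASTX-Toolkit, STAR and a barcode correction script, with a Gencode annotation older than the one used here for coordinates.

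Counts were summed by cluster and pool and compared in R 4.3.3 with edgeR 4.0.16 (TMM, filtered on low counts, 6 sums, 3 residual degrees of freedom; limma 3.58.1), and DESeq2 1.42.0 was an alternative. Levels are UMIs of the 6819 tested genes scaled by TMM. Gated cells were chosen from all kept cells and fitted alike over 7495 genes, and the 3 gate genes were left out after adjustment. The 10 genes with the largest change in each direction among those called, with the same direction in both pools and at least 10 UMIs, are named. The clusters, the 25 gene lists (347 genes, 18 not in the files) and the tests were chosen with earlier results of these data known. On counts simulated for D against X/A (6819 genes), 48 of 100 genes changed 2-fold and 92 of 100 changed 4-fold were called, with 5 false calls. The changed genes were drawn only from those above the median level. The simulation followed the cluster sums and not the gated cells, so it does not cover low genes or the gated tests. Some genes of these lists are counted but not reported here by name.

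K and T sums came from the same mice in each cluster, so the pool could be used as a block; correlations of deviations from the cluster means over 6819 genes were 0.0501 (D and X/A), 0.0623 (D and ECL) and 0.0559 (X/A and ECL). Promoters came from RefSeq (GRCm38.p6) by symbol. Shares of cells were recomputed after thinning to 10000 UMIs. Tools were Python 3.11.15, numpy 2.4.6, scipy 1.17.1 and pandas 2.3.3.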

Additional observations from a re-analysis of the deposited data

Results flagged for a closer look

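Wells that the authors did not keep held hormone transcripts above the gates used here (at least 10 UMIs and 50 per 10000). In pool K 2 such wells held Sst and 4 held Ghrl, and in pool T 1 held Sst and 4 held Ghrl. In pool 2 of dataset 1, 1 such well held Ghrl, with 3128.72 Ghrl UMIs per 10000 in a well of 6891 UMIs and 1611 genes. Among the kept corpus cells outside clusters 14, 16 and 17, 4 had at least 50 Ghrl UMIs per 10000.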

How the results depend on the processing

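Between the clusters, DESeq2 in place of edgeR gave 171 in place of 473 genes for D against X/A, 442 in place of 1227 for D against ECL and 556 in place of 1321 for X/A against ECL, and in the gated cells 144 in place of 350, 456 in place of 1131 and 479 in place of 1041; the cause was not tested. Of the list genes called in the gated cells, DESeq2 lost 14 of 36 for D against X/A, 18 of 77 for D against ECL and 22 of 75 for X/A against ECL. Without a filter on low counts the gated D against X/A comparison gave 615 genes over 17443. Leaving out each of the 6 gated sums in turn, which leaves a lone sum assumed to vary like the other groups, gave 157 to 454 genes for D against X/A, 471 to 1473 for D against ECL and 622 to 1165 for X/A against ECL. The low values came without a D sum (188 without pool K and 157 without pool T for D against X/A, 694 and 471 for D against ECL, with 8 and 13 of the 36 list genes lost for D against X/A and 2 and 4 not testable) or without an ECL sum (598 and 649 for D against ECL, 622 and 665 for X/A against ECL); the cause was not tested. The pool as a replicate block gave 398, 1214 and 1140 genes in the gated cells and 520, 1346 and 1447 between the clusters; it ended the calls of Adrb1 (D against ECL) and Atp4b (X/A against ECL) among the list genes and no other of these calls. Without the 5 gated X/A cells outside cluster 17 the gated counts were 492, 1333 and 1395, of which 316, 1091 and 950 were shared with the calls on all gated cells. Of the list genes, Furin and Gata4 (D against X/A), Adrb1 (D against ECL) and Cblif, Pga5 and Cpt1a (X/A against ECL) were among those that then lost their calls, Cd36, Scn2a and Acot1 were too low to test, and Atp4a, Atp4b and Furin (X/A against ECL) changed sign, to -0.39, -0.80 and -0.02; the same 3 changed sign without the X/A sum of pool K, to -0.33, -0.93 and -0.03. Without the 2 gated D cells that stood apart the counts were 320, 1091 and 1017. All settings of the gated cells, and the fits without the 4 cells of cluster 16 that stood apart, were chosen after seeing the data. Of 256 log2 differences between clusters (143 genes) none reversed under the settings fitted, in either pool alone or with every cell given the same weight. All 256 were chosen because they passed between the clusters on the same counts. The genes named by size were also chosen for the same direction in both pools. The choice itself made reversals unlikely, so their absence is no independent support. Of the 256, 115 moved by more than the spread between pools with every cell weighted alike, 59 without pool K and 69 without pool T. DESeq2 lost the call of 66, the fit of all 20 clusters of 37, the gated cells of 34 (of 249), the fit without the 4 cells apart of 11, no filter of 5 and the block of 1. Leaving out cells with over 5% of transcripts of other types removed 0 cells. Thinned to 10000 UMIs, 41 of 45 shares of cells stayed within their interval. The settings for dataset 1 were not fitted, since pool 2 had 1 D cell; gates of 25 and 100 picked the same numbers of cells.

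With 29 to 53 cells a cluster and 2 pools, low genes limit the comparisons. A gene under 7.91 CPM in D cells can go uncounted. The p-values rest on the spread between 2 pools of 3 mice each. That spread was estimated in a single fit over the sums of D, X/A and ECL cells, not over the compared types alone.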
